A study of Mus musculus with 9 samples.

Results

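Single mouse oocytes were profiled on arrays, and 10 genes that mark the somatic cells around an oocyte, the cumulus and granulosa cells, were followed in them. They are Has2, Ptgs2, Tnfaip6 and Ptx3, which cumulus cells use to build their matrix; the hormone, subunit and receptor genes Amh, Inha, Inhba and Fshr; and the transcription factor genes Foxl2 and Nr5a2. They were chosen for what they are known to mark, with earlier results of these data known. Each was read from the row that the probe table names for it alone, and all 10 had exactly 1 such row among 19938 named genes. Each gene was judged on each of the 9 arrays against the 95th percentile of that array's 1035 olfactory receptor (Olfr) rows, called the Olfr level below, a working background set by genes with little known use in the ovary and not a detection p-value. The arrays came from metaphase II oocytes of unmated ICR females aged 2 months, primed with PMSG (10 IU) and triggered with hCG (10 IU) after 46 hours, and every array was made from 1 oocyte. In 3 oocytes the RNA was purified on Qiagen RNeasy Mini columns, in 3 on Arcturus PicoPure columns, and 3 were lysed in NuGEN direct lysis buffer and used as crude lysate; the study compares these preparations. All 9 were amplified with the same NuGEN kit, which copies RNA from single cells, and hybridised to Affymetrix Mouse Gene 1.0 ST arrays. The protocol takes 1 to 3 cells from each of 3 mice per condition without saying which oocyte came from which mouse, so oocytes of a group may share a mouse and the tests reflect the spread among single cells. How cumulus cells were removed is not stated in the labels.

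In the preovulatory follicle, mural granulosa cells line the wall and cumulus cells surround the oocyte, joined to it by fine processes and gap junctions. After the luteinizing hormone surge, which hCG imitates, cumulus cells make a hyaluronan matrix: Has2 makes the hyaluronan, Tnfaip6 and Ptx3 hold it together, and Ptgs2 makes the prostaglandin that supports the process. Granulosa cells also make anti-Müllerian hormone (Amh) and the inhibin and activin subunits (Inha and Inhba), respond to follicle-stimulating hormone through Fshr, and keep their identity through transcription factors such as Foxl2 and Nr5a2. These transcripts are the usual signs that somatic cells have come along with an oocyte.

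The arrays carried an oocyte's transcripts. Of 12 oocyte genes 11 lay above the Olfr level on all 9 arrays, and the other, Figla, on 7. Gdf9, through which the oocyte signals to its cumulus cells, lay between 12.63 and 12.80, Bmp15, its partner, between 12.82 and 12.94, and Zp3, a zona pellucida gene, between 11.42 and 11.77. All values are the authors' log2 expression values. Array medians ran from 7.12 to 7.24 and the Olfr level from 7.25 to 7.53, highest on RNeasy replicate 3.

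Against the Olfr level most of the cumulus and granulosa markers were not above background in most oocytes, but a lower level turned this. On at least 5 of 9 arrays 2 of 10 members lay above the 95th percentile, beside 52.4% of all genes, and 6 of 10 above the 90th, beside 64.3%. The added 4 were Ptx3 and Amh, each above the lower level on 8 arrays, Inha on 7 and Inhba on 5. At the 95th percentile, Foxl2 and Nr5a2 lay above the Olfr level on all 9 arrays, which makes 2 of 10, beside 41.5% of all named genes. Has2, Amh, Fshr and Inha lay above it on no array, 4 of 10 beside 36.6% of all genes. The remaining 4, Ptgs2, Tnfaip6, Inhba and Ptx3, did so on exactly 1 array, beside 4.93% of all genes. For Ptgs2, Tnfaip6 and Inhba this was the same array, RNeasy replicate 3; for Ptx3 it was PicoPure replicate 3. RNeasy replicate 3 thus held 5 of 10 members above the level, beside 46.8% of all genes on that array. PicoPure replicate 3 held 3, beside 53.3%. Each of the other 7 oocytes held 2, beside 49.2% to 56.3%. The count on RNeasy replicate 3 was thus near the share of all genes there.

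**Figure D1:**
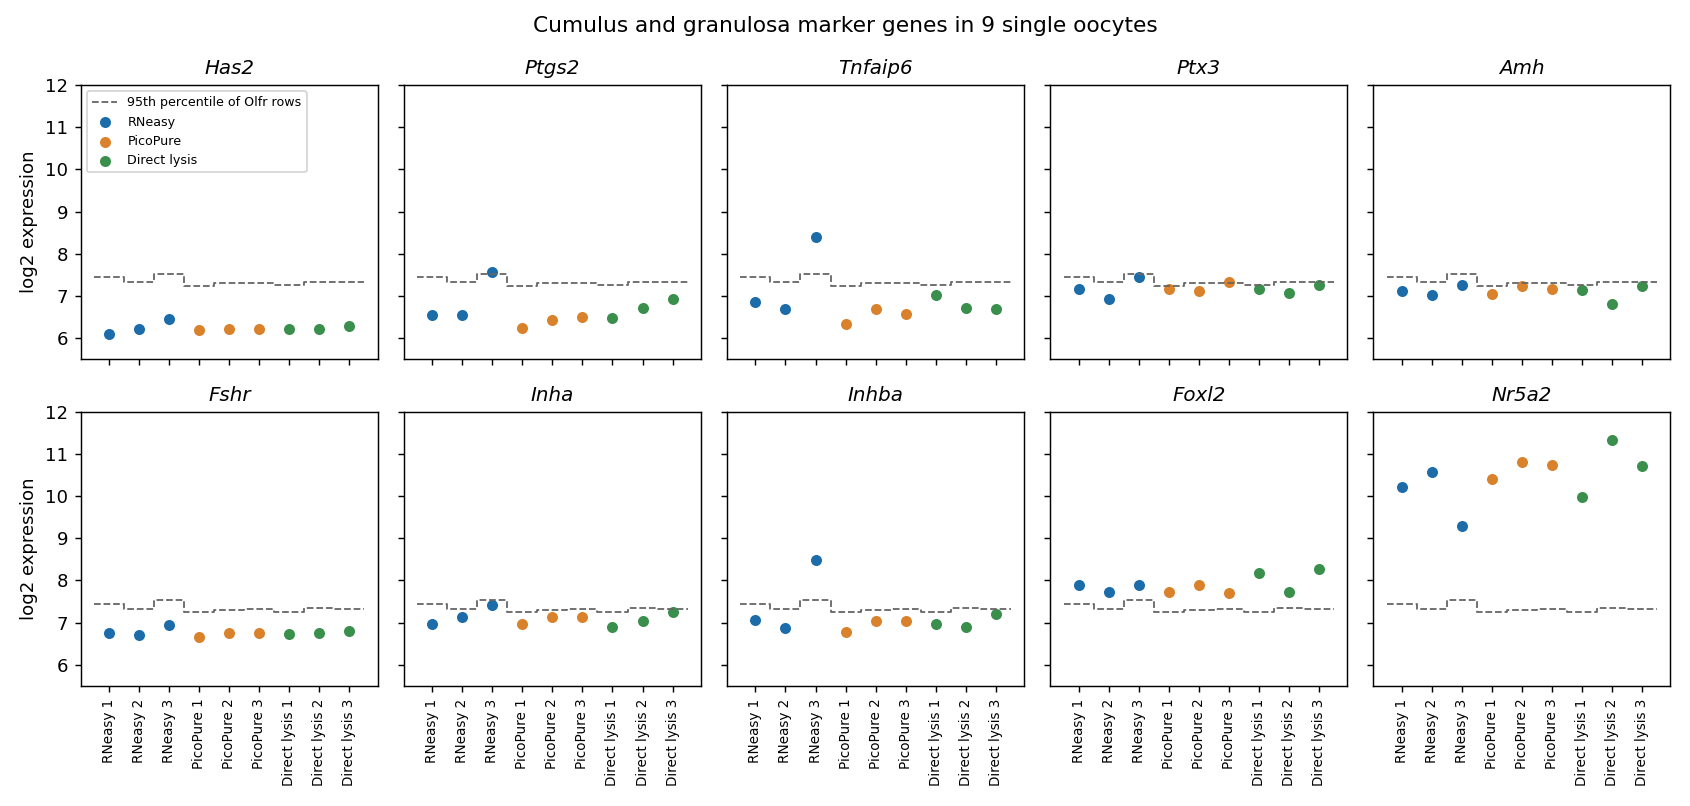
Log2 expression of each of the 10 genes (panels) on each of the 9 arrays (x axis, 1 point per oocyte, coloured by preparation), with the Olfr level of each array as a dashed line. Nr5a2 and Foxl2 lie above the line on all arrays, Tnfaip6 and Inhba clearly above it on RNeasy replicate 3 only, and the other points near or below it.

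The genes of the expanding cumulus matrix came first. Has2, the hyaluronan synthase of the cumulus, had 6.11, 6.22 and 6.46 on RNeasy replicates 1 to 3, 6.19, 6.22 and 6.22 with PicoPure, and 6.22, 6.21 and 6.29 with direct lysis. Its values lay at least 1.04 below the level on every array, and between 57.8% and 70.1% of the Olfr rows of an array lay below it. Tnfaip6, which transfers protein chains onto hyaluronan, had 6.85, 6.69 and 8.39 with RNeasy, 6.34, 6.69 and 6.58 with PicoPure, and 7.03, 6.72 and 6.69 with direct lysis. RNeasy replicate 3 was the exception, and the other 8 oocytes lay between 6.34 and 7.03, all below their level.

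Ptgs2, the inducible prostaglandin synthase, had 6.55, 6.55 and 7.56 with RNeasy, 6.24, 6.44 and 6.50 with PicoPure, and 6.48, 6.71 and 6.94 with direct lysis. Again RNeasy replicate 3 was highest, though it passed its level by no more than 0.03. Ptx3, a pentraxin that links the matrix, had 7.16, 6.92 and 7.46 with RNeasy, 7.16, 7.12 and 7.34 with PicoPure, and 7.16, 7.06 and 7.27 with direct lysis. Every Ptx3 value lay within 0.41 of its array's level, and the single one above it, on PicoPure replicate 3, exceeded it by 0.03, so its place on either side of the level was decided by small differences.

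Among the hormone and receptor genes, Inhba had the pattern of Tnfaip6. This gene encodes the subunit that forms activin A, and inhibin A together with the Inha product. It had 7.06, 6.86 and 8.48 with RNeasy, 6.78, 7.03 and 7.03 with PicoPure, and 6.96, 6.89 and 7.21 with direct lysis, so that 8 oocytes lay below their level and RNeasy replicate 3 lay 0.95 above its own. Inha, the inhibin alpha subunit gene, had 6.97, 7.14 and 7.43 with RNeasy, 6.98, 7.14 and 7.14 with PicoPure, and 6.90, 7.04 and 7.24 with direct lysis. It lay below the level on all 9 arrays and came within 0.10 of it on RNeasy replicate 3 and on direct lysis replicate 3.

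Amh, a hormone gene typical of granulosa cells of growing follicles, had 7.11, 7.02 and 7.26 with RNeasy, 7.05, 7.23 and 7.17 with PicoPure, and 7.15, 6.81 and 7.23 with direct lysis. Fshr, the receptor for follicle-stimulating hormone, had 6.77, 6.72 and 6.94 with RNeasy, 6.66, 6.77 and 6.77 with PicoPure, and 6.74, 6.77 and 6.81 with direct lysis. With an SD of 0.08 over the 9 oocytes it varied least of the 10 members. Both genes lay below the Olfr level on every array, Fshr by at least 0.52 and Amh by at least 0.07.

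One oocyte set the pattern of the list. On RNeasy replicate 3, Tnfaip6 was 1.36 log2 units above the highest of the other 8 oocytes, Inhba 1.26 and Ptgs2 0.62. Over 1 log2 unit above every other array, and above the Olfr level, were 2 of 10 members there, beside 52 of 19938 genes (0.261%); at over 0.5 they were 3 of 10, beside 0.747% of all genes. On each of the other 8 arrays no member stood out by over 1, and 1 did so by over 0.5, Nr5a2 on direct lysis replicate 2. The gaps were 1.38 for Tnfaip6 and 1.30 for Inhba after a further quantile normalization. Since the members were chosen with earlier results of these data known, these counts and shares are given as a description.

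Of the 10 members 8, all but Foxl2 and Nr5a2, had their highest value on RNeasy replicate 3. This count reads differently from the gaps, since 44.1% of the Olfr rows and 18.4% of all genes were also highest on that array, whose Olfr level was the highest of the 9. Has2, Amh, Fshr, Inha and Ptx3 exceeded the next array by 0.03 to 0.19 there and stayed below the level. Of the 1035 Olfr rows, 1 stood out by over 1 log2 unit and above the level on that array.

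Genes outside the list stood out further on the same oocyte; they were chosen after their values were seen. Akr1c18, an enzyme that inactivates progesterone in the ovary, had 10.29 on RNeasy replicate 3 and between 4.86 and 5.30 on the other 8 arrays. Cd63, a tetraspanin gene, had 9.27 against 4.09 to 5.07, and Itm2a, a membrane protein gene, 9.58 against 5.85 to 6.38. Gm10768, a gene model with no name of its own, had 8.48 against 3.69 to 4.10. Prl2a1, of the prolactin family, had 10.20 against 6.43 to 6.64, and Fabp2, a fatty acid-binding protein gene, 10.36 against 5.86 to 6.73. Akr1c18 and Prl2a1 belong to families of similar genes, so their rows can share signal. The number of genes standing out by over 1 was not unusual for this array: it was 52 there and ran from 20 to 55 on the others.

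Markers around the list were counted on that oocyte in the same way. Of 56 companion cumulus and granulosa genes measured, 12 were highest on RNeasy replicate 3, beside 18.4% of all genes. With the level also passed, 0 companions exceeded every other array by over 0.5 there, beside 0.747% of all genes. Both counts lay near the share of all genes and are given as a description. Without the level, for which no share of all genes was computed, 2 companions exceeded every other array by over 0.5. These were Gja1, the gap junction gene of cumulus cells, with 7.40 against 6.42 to 6.83, and Hsd3b1, a steroid synthesis gene, with 6.59 against 5.60 to 6.04. Vcan, Cd44, Hapln1 and Adamts1, further genes of the expanded matrix, lay above the level on no array. An array of 1 collected oocyte does not tell which cell a transcript came from, and the source of these signals was not tested.

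**Figure D2:**
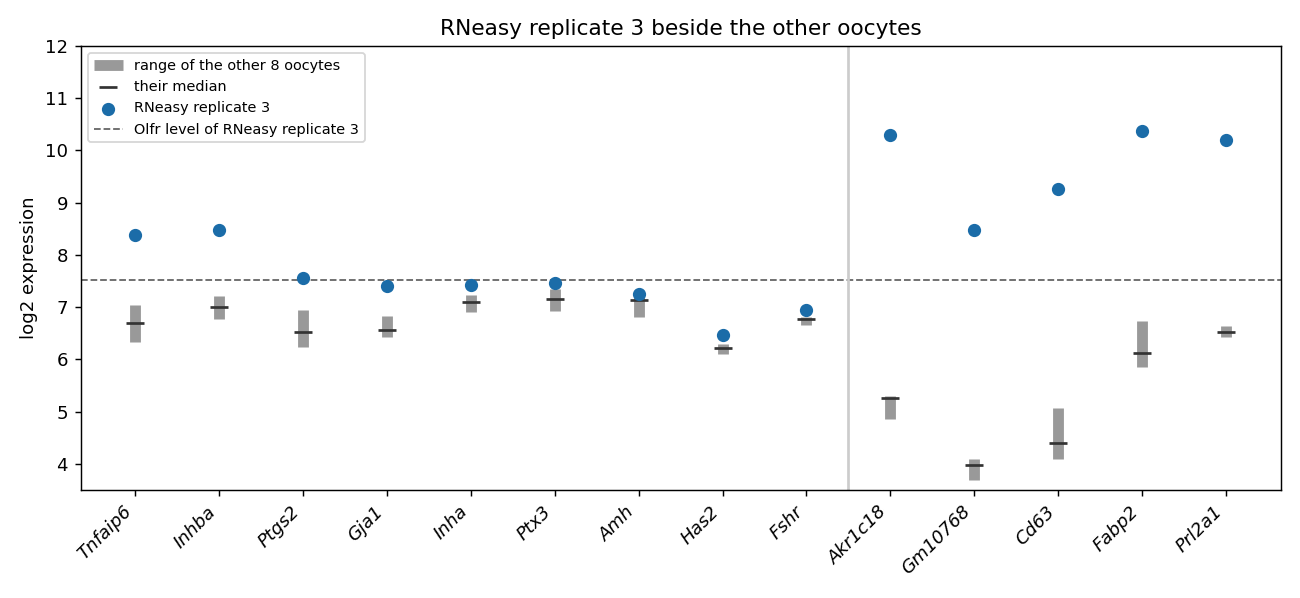
Log2 expression on RNeasy replicate 3 (blue points) beside the range (grey bars) and median (black ticks) of the other 8 oocytes, for 8 members and Gja1 (left of the line) and for the 5 genes furthest above all other arrays there (right). The dashed line is that array's Olfr level; Tnfaip6 at 8.39 and Inhba at 8.48 lie above both the line and the grey bars.

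The transcription factor genes were different. Nr5a2, a nuclear receptor that granulosa cells need for ovulation and that is also known in eggs and early embryos, had 10.20, 10.57 and 9.30 with RNeasy, 10.39, 10.81 and 10.74 with PicoPure, and 9.97, 11.32 and 10.72 with direct lysis. It lay between 1.77 and 3.98 above the level, and at least 99.7% of the Olfr rows of every array lay below it. Its lowest value was on RNeasy replicate 3, the array on which Tnfaip6 and Inhba were highest. The SD over the 9 oocytes was 0.58, and the values of the 3 preparations overlapped.

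Foxl2, which keeps granulosa cells from turning towards a testicular fate, had 7.89, 7.72 and 7.88 with RNeasy, 7.72, 7.89 and 7.71 with PicoPure, and 8.18, 7.72 and 8.27 with direct lysis. It lay above the level on every array, by 0.35 to 0.95, with at least 97.4% of the Olfr rows below it. Its place depended on the background chosen. Against the 99th percentile of the Olfr rows Foxl2 was above on 1 of 9 arrays and Nr5a2 on all 9. A background of 173 keratin, skin, defensin and milk protein rows was added after the values were seen. Its 95th percentile ran from 8.44 to 8.69, and Foxl2 was above it on 0 arrays and Nr5a2 still on all 9. Its rows include Krt7 and Krt18, counted below as oviduct genes, and Krt7 itself lay above the Olfr level on 8 arrays.

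The promoters of the 2 genes that passed the level on all arrays are shown as a description, and no link of their sequence to detection was tested. Each is given as the 250 bases before each RefSeq start (build GRCm38.p6) with every CG pair in capitals. RefSeq lists a pair of Nr5a2 starts, and the single row does not tell which was used. The Foxl2 window holds 22 CG pairs and the Nr5a2 windows 2 and 6, where the median of 32851 windows is 6. Of the 10 members 8 had a window in the table.
Foxl2, chr9:98955357-98955606, plus strand: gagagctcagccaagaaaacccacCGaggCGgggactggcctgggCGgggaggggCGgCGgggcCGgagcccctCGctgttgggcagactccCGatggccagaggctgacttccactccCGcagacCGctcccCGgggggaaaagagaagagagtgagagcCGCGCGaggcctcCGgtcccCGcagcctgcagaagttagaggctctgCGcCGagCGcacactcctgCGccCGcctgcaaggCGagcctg
Nr5a2 first window, chr1:136960449-136960698, minus strand: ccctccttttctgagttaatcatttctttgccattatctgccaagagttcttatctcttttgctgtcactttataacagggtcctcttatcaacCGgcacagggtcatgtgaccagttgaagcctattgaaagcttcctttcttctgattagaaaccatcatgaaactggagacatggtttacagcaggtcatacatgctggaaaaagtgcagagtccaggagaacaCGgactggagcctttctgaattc
Nr5a2 second window, chr1:136953631-136953880, minus strand: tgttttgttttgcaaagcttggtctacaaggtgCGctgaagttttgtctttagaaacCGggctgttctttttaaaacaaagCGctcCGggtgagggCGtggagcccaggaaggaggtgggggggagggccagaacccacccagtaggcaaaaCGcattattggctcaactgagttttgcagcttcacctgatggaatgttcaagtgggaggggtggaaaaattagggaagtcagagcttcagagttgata

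Direct lysis against purified RNA asks whether skipping the column changed these readings. No member passed the test between the 3 crude lysates and the 6 purified oocytes, beside 201 of 19938 genes (1.01%) called by limma at an adjusted p under 0.05, of which 0.341% of all genes were higher and 0.667% lower in lysate. No member had an unadjusted p under that threshold, beside 14.2% of all genes, and for every member the lysates overlapped the purified oocytes, where 8.02% of all genes did not overlap. The median difference of the 10 members was -0.01 and that of all genes 0.00, with 5 members positive and 5 negative. Foxl2 came nearest, with 8.06 ± 0.29 after direct lysis (SD, n = 3) beside 7.80 ± 0.09 for the purified oocytes (SD, n = 6), a difference of 0.26 ± 0.12 SE (95% interval -0.03 to 0.54, limma adjusted p = 0.391). Direct lysis replicates 1 and 3 lay above every purified value and replicate 2, at 7.72, within them. The difference ran from 0.15 without direct lysis replicate 3 to 0.42 without direct lysis replicate 2, where the limma adjusted p was 0.0823.

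Nr5a2 averaged 10.67 ± 0.68 after direct lysis (SD, n = 3) beside 10.33 ± 0.56 for the purified oocytes (SD, n = 6), a difference of 0.33 with a 95% interval from -0.47 to 1.14 (limma adjusted p = 0.691). That interval covers folds from 0.72 to 2.20. Single oocytes decided the size: it was 0.0096 without direct lysis replicate 2, 0.15 without RNeasy replicate 3 and 0.68 without direct lysis replicate 1. For the 8 other members the differences ran from -0.19 for Inhba to 0.07 for Ptgs2. Of the intervals of these 8, the widest belonged to Tnfaip6, from -0.92 to 0.69, and Inhba, from -0.94 to 0.57. Without RNeasy replicate 3 the difference of Tnfaip6 went from -0.11 to 0.16 and that of Inhba from -0.19 to 0.07. Of the 72 values of these 8 genes 4 lay above the Olfr level.

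PicoPure against RNeasy compares both column kits, and again no member passed, beside 12 of 19938 genes (0.0602% by limma, with 0.0401% higher and 0.0201% lower with PicoPure); unadjusted, no member had a p under 0.05, beside 7.98% of all genes. The median difference was -0.07 over the members and -0.03 over all genes. Tnfaip6 had the largest, with 6.54 ± 0.18 with PicoPure and 7.31 ± 0.93 with RNeasy (SD, n = 3 each), a difference of -0.77 ± 0.40 SE (95% interval -1.70 to 0.16, limma adjusted p = 0.683). Inhba had 6.95 ± 0.15 and 7.47 ± 0.88, a difference of -0.52 (interval -1.39 to 0.35, limma adjusted p = 0.781). Both rested on RNeasy replicate 3: without it the differences were -0.23 and -0.01.

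Ptgs2 differed by -0.49 ± 0.27 SE (interval -1.11 to 0.13, limma adjusted p = 0.706), and by -0.16 without RNeasy replicate 3. All 3 PicoPure values of Ptgs2 lay below all 3 RNeasy values, a separation found in either direction in 13.9% of all genes. The other members overlapped. Nr5a2 had 10.65 ± 0.22 with PicoPure and 10.02 ± 0.65 with RNeasy, a difference of 0.63 (interval -0.30 to 1.55, limma adjusted p = 0.76), which was 0.26 without RNeasy replicate 3. The differences of Has2, Ptx3, Amh, Fshr, Inha and Foxl2 lay between -0.09 and 0.03.

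**Figure D3:**
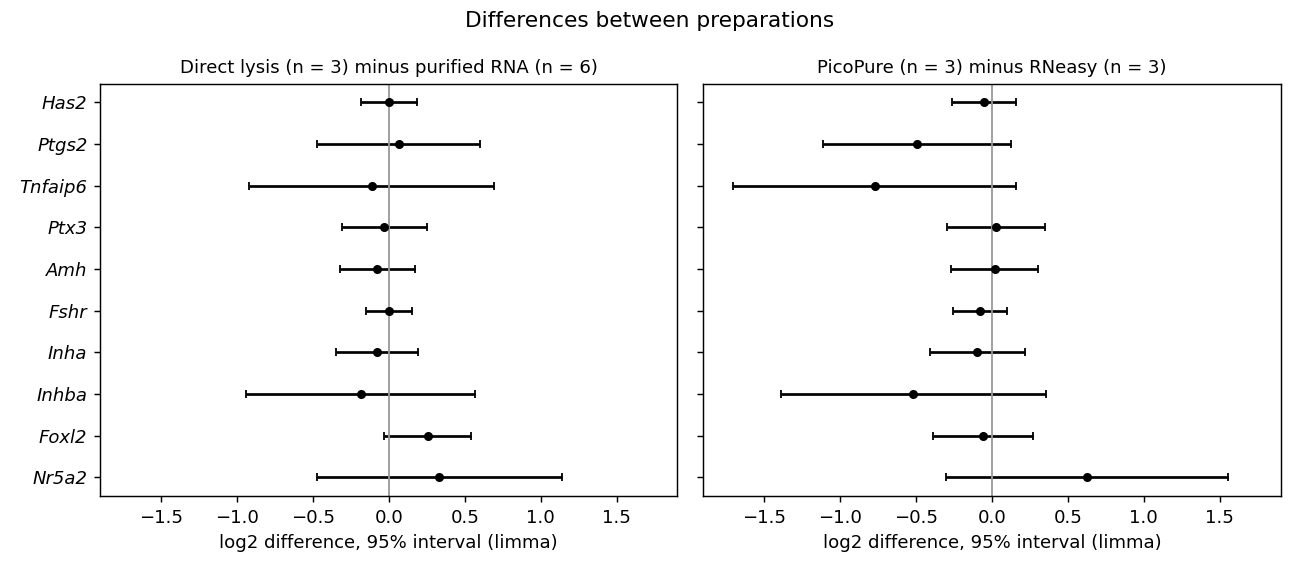
Log2 difference (points) with its 95% interval from limma (bars) for each of the 10 genes, direct lysis minus purified RNA on the left and PicoPure minus RNeasy on the right. Every interval includes 0, and the widest are those of Tnfaip6, Inhba, Nr5a2 and Ptgs2.

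Companion genes listed for processes of the same cells gave a mixed picture. The arrays do not tell whether their transcripts came from the oocyte or from such cells. Of 56 measured in 5 lists, 20 lay above the Olfr level on all 9 arrays, beside 41.5% of all genes. On no array were 26, beside 36.6% of all genes. The same shares stand beside the counts of each list below. Among 12 partners of the expanding matrix, 10 lay above it on no array; Ptger4, a prostaglandin E receptor gene, did so on all 9 with 7.66 to 8.28, and Has3, another hyaluronan synthase, on 8. Of 13 genes of the response to luteinizing hormone and EGF-like factors, 7 were above on no array. Rgs2, a regulator of G protein signalling, lay between 12.37 and 12.51, whereas Nppc, the natriuretic peptide precursor, and Egfr, the EGF receptor, passed the level by as little as 0.03 and 0.01 on their lowest array.

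Of 12 genes listed for inhibin, activin and AMH signalling 9 lay above the level on all arrays, beside 41.5% of all genes. Among them were Smad2 (11.88 to 12.10), Smad3 (10.78 to 11.59) and Smad4 (10.56 to 11.35), which carry activin signals to the nucleus. Tgfbr3 (8.29 to 9.12), a co-receptor for inhibin, was another. The others were Acvr1b, Acvr2a, Acvr2b, Fstl3 and Fst, of which Acvr2b and Fst passed the level by as little as 0.12 and 0.08. Inhbb, Acvr1 and the AMH receptor gene Amhr2 lay above it on none. No gene of this list passed either test.

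Of 7 steroid synthesis genes 3 lay above the level on no array, Star, Cyp11a1 and Hsd3b1, which serve progesterone synthesis in luteinizing cells. Hsd17b7 (9.69 to 11.01), which also serves cholesterol synthesis, and Fdx1 (7.73 to 10.33), an electron carrier of mitochondria, were above on all 9. Scarb1, a lipoprotein receptor, was higher after direct lysis, with 7.86 ± 0.03 (SD, n = 3) against 7.34 ± 0.13 for purified oocytes (SD, n = 6) (difference 0.51 ± 0.07 SE, limma adjusted p = 0.0206). Its values lay near the level, above it on 6 of 9 arrays.

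Of 12 further genes of granulosa identity 5 lay above on all arrays and 3 on none, among the latter Kitl, the Kit ligand that granulosa cells present to the oocyte. The BMP receptor genes Bmpr1b (11.11 to 11.50) and Bmpr2 (11.02 to 11.64), through which BMP family signals are read, were high, with Gata4 (7.99 to 9.41) and Nr5a1 (7.62 to 7.86), both transcription factor genes, closer to the level. Bmpr2 was lower after direct lysis, with 11.07 ± 0.07 (SD, n = 3) against 11.55 ± 0.09 for purified oocytes (SD, n = 6) (difference -0.49 ± 0.07 SE, limma adjusted p = 0.0276). Bmpr2 and Scarb1 were the companion genes called against purified RNA, and none was called between the kits. Both calls were near the threshold. Both were lost without RNeasy replicate 1 or 2, PicoPure replicate 1 or 2, or direct lysis replicate 2 or 3, and that of Bmpr2 also without direct lysis replicate 1, with limma adjusted p from 0.0516 to 0.0832. With the replicate number as a block the adjusted p (limma) was 0.0814 for Scarb1 and 0.0896 for Bmpr2, and after a further quantile normalization that of Bmpr2 was 0.0691.

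Markers of other cells of the ovary and oviduct were mixed as well, beside the 41.5% of all genes above on all arrays and 36.6% above on none. Of 6 theca genes 3 lay above on all arrays, Col1a1 (8.05 to 8.29), Gli1 (7.49 to 7.91) and Col3a1 (7.53 to 7.82), and 3 on none. Of 9 blood and immune genes 7 lay above on no array and Cd3e alone on all 9, by as little as 0.02. Of 6 oviduct genes none was above on all 9 and 2 were on none, while Pax8 and Krt7 were above on 8 and Krt18 and Wnt7a on 1. The log2 of the summed linear levels of the blood list was 9.82 to 9.88 over the RNeasy oocytes, 9.67 to 9.85 over the PicoPure oocytes and 9.78 to 9.89 over the lysates. For the 4 matrix members that quantity was 8.62 to 9.62 over the RNeasy oocytes, 8.54 to 8.73 over the PicoPure oocytes and 8.70 to 8.84 over the lysates.

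**Figure D4:**
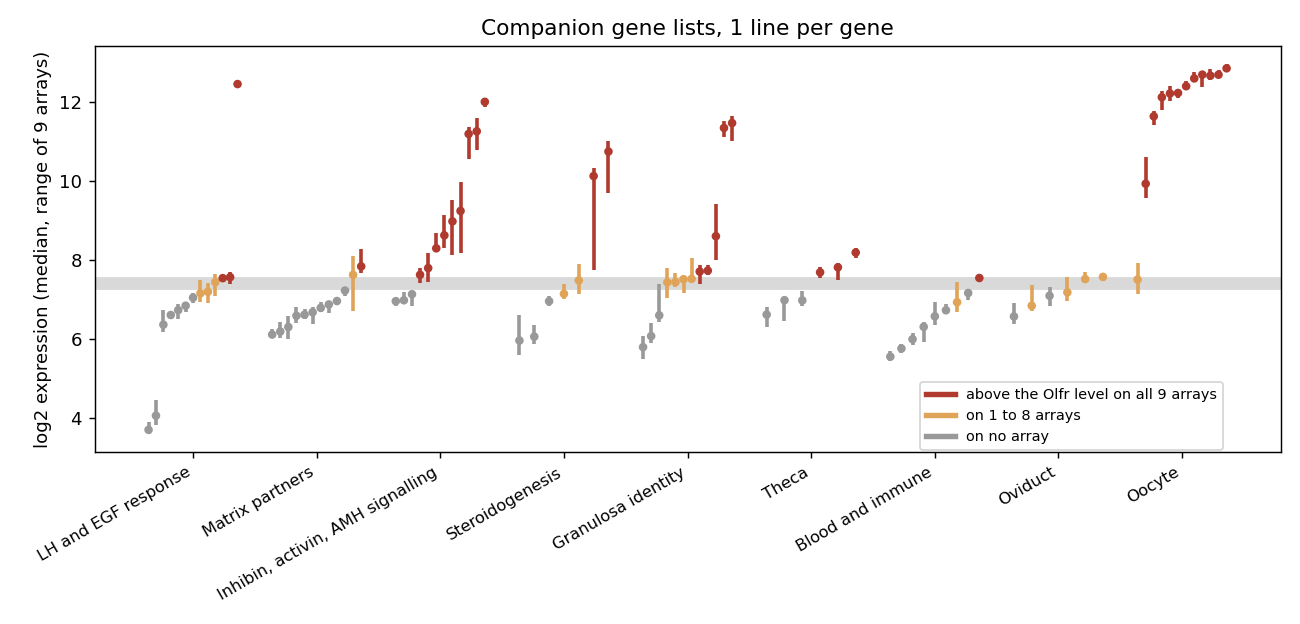
Log2 expression of the companion genes by list (x axis), 1 line per gene from its lowest to its highest array with a point at the median, coloured by the number of arrays on which it lay above the Olfr level; the grey band spans that level over the 9 arrays. Matrix partners, blood and oviduct genes lie mostly in or below the band, and 11 of 12 oocyte genes lie far above it. Signalling genes spread from below the band, with 3 of 12 above the level on no array, to Smad2 at 11.88 to 12.10.

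The genes whose pattern over the 9 oocytes was most like that of Nr5a2, among 8273 genes above the level on all arrays, were Eml4, Pphln1 and Oxct1, with Pearson's r of 0.95, 0.94 and 0.94. For Foxl2 they were Nhlrc1, Zfp503 and H1f10, with 0.94, 0.94 and 0.94. These are the highest of many correlations over 9 arrays that share their normalization, and are given as a description.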

How the data were processed

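The deposited table holds the authors' log2 expression values of 35556 rows on 9 arrays. The submitters' processing notes list GCOS, GCRMA and Affymetrix Expression Console without versions; the log2 scale was read from the values (2.41 to 13.90), and no build is stated in the sources read. No scanner files were used here, so background correction, which shapes low values, was not repeated. The platform's probe table named 21789 rows with 1 symbol, and the row with the highest mean was kept for each gene. Groups came from sample titles, 3 oocytes each. limma 3.58.1 in R 4.3.3 (lmFit, eBayes) was fitted to all 19938 genes and 9 arrays, with two-sided tests and Benjamini-Hochberg adjustment at 0.05, and was tested on simulated data. Precision is limited by the number of arrays. The members and lists were chosen with earlier results of these data known. A rule named from each list the genes called and at most 4 above the level on all 9 arrays. These 4 had the largest margin on their lowest array. For the genes most like Foxl2 and Nr5a2, it named the 3 with the highest correlation. Other listed genes, among them Vcan, Gja1, Star, Kitl, Has3, Amhr2 and Acvr1b, were named outside that rule.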

Additional observations from a re-analysis of the deposited data

Results flagged for a closer look

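Over the 9 oocytes, RNeasy replicate 3 lay far from all others for Tnfaip6, at 8.39, and for Inhba, at 8.48, by Dixon's ratio of its gap to the whole range (0.66 and 0.74). Among the 6 purified oocytes the same array stood apart for both genes and also for Ptgs2 (7.56), Inha (7.43) and Has2 (6.46), the last 2 below the Olfr level. Over all 9 oocytes 2 of 10 members stood apart and among the purified ones 5 of 10; the 6 purified oocytes are part of the 9, so Tnfaip6 and Inhba count in both. Chance flags about 1 in 20 groups of independent values, which these are not. Genes of 1 array share its processing, and low rows were often highest there, among them 44.1% of the Olfr rows. The members were also chosen with earlier results of these data known. The share of all genes past the same ratio was not computed, so these counts have no background beside them.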

How the results depend on the processing

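No member passed the test in either comparison under any alternative; the smallest limma adjusted p over 304 values was 0.0823. Of these values 8 were fixed at the Olfr level by raising values to it, for Has2, Amh, Fshr and Inha, and are differences of the level and not of the gene; of the other 296, 269 kept their direction and 27 turned. With the filter on level only Foxl2 and Nr5a2 were left to test. The count of members above background on all 9 arrays was 1 with the 99th percentile of the Olfr rows and 1 with the keratin, skin, defensin and milk protein rows. The count above it on no array was 2 with the 90th percentile and 9 with the keratin and related rows. With single arrays left out it was 4 to 7, 7 being without RNeasy replicate 3. At the 90th percentile 6 members lay above on at least 5 arrays, beside 64.3% of all genes. The shares of all genes above on all or on no array were not computed under these alternatives. Those counts therefore have no background beside them. With values raised to the Olfr level, the figures for crude lysate against purified RNA were -0.055 for Has2, -0.055 for Fshr and -0.060 for Ptgs2, and for PicoPure against RNeasy -0.14 for Amh and -0.14 for Ptx3. By construction these are the difference of the level for Has2, Fshr and Amh. For Ptgs2 and Ptx3, with 1 array above the level each, they are mostly that difference too: -0.060 beside -0.055 and -0.136 beside -0.144. With a further quantile normalization Has2 differed by 0.026 between the kits. With single arrays left out, the crude lysate difference ran from -0.035 to 0.052 for Has2, -0.048 to 0.23 for Ptgs2, -0.27 to 0.16 for Tnfaip6, -0.095 to 0.041 for Ptx3, -0.16 to 0.051 for Amh, -0.020 to 0.036 for Fshr, -0.17 to 0.0048 for Inha, -0.34 to 0.067 for Inhba, 0.15 to 0.42 for Foxl2 and 0.0096 to 0.68 for Nr5a2; the difference between kits ran from -0.13 to 0.045 for Has2, -0.11 to 0.17 for Ptx3, -0.039 to 0.084 for Amh and -0.20 to 0.029 for Inha. The cause of these turns was not tested. Over all genes, the 201 calls against purified RNA were 24 to 232 and the 12 between kits 0 to 15 with single arrays left out. With the replicate block they were 25 and 0, no member was called, and Foxl2 had an adjusted p of 0.438 (limma) in crude lysate against purified RNA. The numbers recur in each group, and no pairing of the oocytes is stated. Same-numbered oocytes deviated from their group means with r from -0.09 to 0.13 over 9 pairs, and different-numbered ones with r from -0.11 to 0.17 over 18. Of 9 arrays 6 correlated best with an array of their own number. These values do not settle whether the numbers pair oocytes. Of 16 alternatives each, examined after the data were seen, Scarb1 passed under 9 and Bmpr2 under 7, with differences over all 16 from 0.42 to 0.54 and from -0.53 to -0.38. With an intensity trend the kits gave 0 calls (limma), and 1591 genes had an unadjusted p under 0.05 without it. No scanner files were used, so signal over background was judged only against rows of genes used as background.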

Other observations

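Several low rows held exactly the same deposited value on different arrays. Fshr had 6.77 on 4 arrays of all 3 preparations, Has2 6.22 on 3, Tnfaip6 6.69 on 3, Ptx3 7.16 on 3 and Inha 7.14 on 3. Such a repeat over more than 2 arrays occurred in 41.6% of Olfr rows, in 46.0% of genes above the Olfr level on no array and in 17.9% of genes above it on all 9. Nr5a2 and Amh had 9 distinct values, and Foxl2 shared 7.89 between 2 arrays. Tnfaip6 and Inhba on RNeasy replicate 3 had values found on no other array.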
